A study of Mus musculus with 12 samples.

Results

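Of 139999 accessible regions listed for mouse bone marrow derived macrophages, 3899 (2.785%) were among the most open in every phase of the experiment. A region, or peak, was taken when the mean of its 2 deposited log2 group levels reached the 95th percentile of all peaks in the table of the first phase, of the rest phase and of the second phase. The members were chosen by these levels, so their height is a description and not a result. The rule used no gene, position, sequence or difference between groups or phases, but it used the same libraries as the comparisons between phases, so those are not independent of it. Being high in every phase also limits how far members can differ between phases. The assay was ATAC-seq, in which the Tn5 transposase cuts and tags DNA wherever chromatin is accessible. Male C57BL/6J mice aged 8 weeks were either given streptozotocin, which kills the insulin-secreting beta cells, at 42 to 45 mg/kg daily for 5 days after a fast of 12 hours, or served as controls. Treated mice with a blood glucose over 16.9 mmol/L spent 6 weeks hyperglycaemic before their marrow was taken. Marrow progenitors of either kind were grown for 7 days with M-CSF, the macrophage growth factor, in medium with 5 mmol/L glucose (rest phase). For the second phase they then received IFN-γ at 10 ng/mL and LPS at 100 ng/mL for 16 hours. When first-phase cells were collected is not given in the labels. Each phase holds a diabetic (later diabetic-trained) and a healthy (later untrained) group with 2 libraries each. Neither mean column of a table is named for a group, so the groups are called A and B, and A of one phase need not be A of another. The labels do not say whether libraries came from separate animals, and p-values measure only the spread between libraries.

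Chromatin is opened at gene promoters by general transcription factors and by factors such as the SP and KLF families, ETS proteins, NFY and YY1, which bind short motifs close to the start site. Promoters rich in unmethylated CpG dinucleotides, the CpG islands, keep few stable nucleosomes and drive most genes that every cell uses. Distal enhancers, in contrast, are opened by lineage factors such as PU.1 and by signal-dependent factors such as AP-1 and the STAT and IRF proteins, and vary more between cell types.

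Promoter sequences of 7 members are shown because they carry the patterns described below. These are the GC and CCAAT boxes of the highest members (Hdgfl2 and Sp1) and a promoter with an almost fixed level (Edrf1). Promoters with a level called different between the rest and first phases follow (Id3, Upf2 and Irf1). The promoter of Cxcl2 was called between the second and rest phases once some second-phase libraries were left out, but not with all of them. Each run holds the 250 bases before the start site from RefSeq (GRCm38.p6, the assembly of mm10), 5′ to 3′ on the strand of the gene. Capitals mark letters that match any of 13 motifs searched on both strands, which are given in the next paragraph by their letters or, for the longest, by name, and may overlap one another.
Hdgfl2: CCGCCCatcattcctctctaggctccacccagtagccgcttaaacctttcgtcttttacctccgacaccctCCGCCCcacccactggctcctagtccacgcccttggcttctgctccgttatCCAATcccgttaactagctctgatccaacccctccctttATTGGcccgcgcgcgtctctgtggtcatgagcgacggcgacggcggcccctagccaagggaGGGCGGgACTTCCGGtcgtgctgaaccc
Sp1: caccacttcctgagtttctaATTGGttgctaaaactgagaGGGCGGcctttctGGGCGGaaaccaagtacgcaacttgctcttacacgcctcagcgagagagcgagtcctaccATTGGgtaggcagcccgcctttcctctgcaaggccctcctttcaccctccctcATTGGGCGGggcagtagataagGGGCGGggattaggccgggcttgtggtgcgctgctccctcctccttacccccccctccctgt
Edrf1: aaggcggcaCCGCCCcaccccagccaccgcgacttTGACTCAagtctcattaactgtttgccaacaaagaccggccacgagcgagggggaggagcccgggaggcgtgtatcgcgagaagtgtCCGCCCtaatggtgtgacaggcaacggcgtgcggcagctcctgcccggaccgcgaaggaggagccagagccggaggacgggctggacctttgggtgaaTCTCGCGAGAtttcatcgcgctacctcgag
Id3: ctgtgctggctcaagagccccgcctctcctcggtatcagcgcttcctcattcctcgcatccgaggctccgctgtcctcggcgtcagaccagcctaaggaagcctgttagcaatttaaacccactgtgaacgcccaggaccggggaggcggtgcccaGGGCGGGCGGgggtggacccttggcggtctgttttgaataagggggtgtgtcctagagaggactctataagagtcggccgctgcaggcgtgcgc
Upf2: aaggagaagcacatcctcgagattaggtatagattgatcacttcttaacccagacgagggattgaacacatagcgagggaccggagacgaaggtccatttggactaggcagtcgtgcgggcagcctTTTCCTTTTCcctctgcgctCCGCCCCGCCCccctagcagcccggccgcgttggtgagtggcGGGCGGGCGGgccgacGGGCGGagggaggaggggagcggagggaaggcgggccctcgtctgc
Irf1: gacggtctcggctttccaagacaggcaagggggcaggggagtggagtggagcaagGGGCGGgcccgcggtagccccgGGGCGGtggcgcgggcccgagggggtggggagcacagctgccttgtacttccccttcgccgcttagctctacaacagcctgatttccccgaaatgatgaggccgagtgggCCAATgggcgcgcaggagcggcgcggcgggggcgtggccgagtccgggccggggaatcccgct
Cxcl2: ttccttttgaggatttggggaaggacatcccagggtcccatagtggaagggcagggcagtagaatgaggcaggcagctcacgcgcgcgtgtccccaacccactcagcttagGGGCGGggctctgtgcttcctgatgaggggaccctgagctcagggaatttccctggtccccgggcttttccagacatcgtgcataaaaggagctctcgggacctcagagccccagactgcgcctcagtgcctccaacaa
All 7 genes lie on the plus strand. The sequence of Hdgfl2 spans chr17:56079381-56079630 and overlaps the member chr17:56079160-56079559, that of Sp1 spans chr15:102406066-102406315 under chr15:102405903-102406302, and that of Edrf1 chr7:133637425-133637674 under chr7:133637421-133637820. Those of Id3 and Upf2 span chr4:136143572-136143821 and chr2:5951219-5951468, under the members chr4:136143509-136143908 and chr2:5951151-5951550. Those of Irf1 and Cxcl2 span chr11:53769764-53770013 and chr5:90903649-90903898, under chr11:53769733-53770132 and chr5:90903465-90903864. The Hdgfl2, Cxcl2 and Sp1 runs pass the end of their members by 71, 34 and 13 bases, and letters marked there lie outside the member. The GC box GGGCGG occurs 3 times in the Hdgfl2 sequence, 4 times in that of Sp1 and 5 times in that of Upf2. The CCAAT box occurs 2 times in Hdgfl2 and 3 times in Sp1. Edrf1 holds the ZBTB33 palindrome and an AP-1 motif beside 2 GC boxes. The Cxcl2 run had 9 CpG dinucleotides and a GC content of 60.0%, against 25 CpG and 71.2% for Irf1.

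Promoters under members were rich in GC boxes and in CCAAT boxes. The RefSeq promoter set used held 32817 distinct windows of 300 bases and did not cover every chromosome. Of these windows 3248 were overlapped by a member over at least 150 bp, 7957 by another peak only and 21612 by none. The GC box GGGCGG of SP and KLF factors was found in 79.1% of windows under members, 56.6% under other peaks and 35.6% of all windows. CCAAT, bound by NFY, was found in 56.1%, 32.9% and 37.4%, in that order. CCGGAAGT (ETS) stood at 11.2%, 7.34% and 3.89%, and AAGATGGCG (YY1) at 4.31%, 2.49% and 1.40%. The ZBTB33 palindrome was found in 1.76%, 0.855% and 0.466%, and the shared motif of THAP11 and ZNF143 in 1.20%, 0.503% and 0.286%. The cyclic AMP response element TGACGTCA was found in 4.16%, 3.18% and 1.79%, the E-box CACGTG in 11.6%, 10.3% and 7.15%, and the NRF1 palindrome in 2.16%, 2.19% and 0.966%. Some motifs were less frequent under members than under other peaks. The AP-1 motif TGANTCA was found in 4.16% against 7.28%, TATAAA (the box of TBP) in 4.59% against 7.75%, GAGGAAGT (PU.1) in 3.29% against 4.45% and the interferon-stimulated element in 2.31% against 3.26%. The windows also differed in base content, which moves such shares. The median GC content was 63.3% under members, 59.7% under other peaks and 52.7% over all windows, and the median ratio of observed to expected CpG was 0.846, 0.711 and 0.383. A ratio over 0.6 was found for 90.8% of windows under members and 62.3% under other peaks. These shares were not tested, and a match is a string of letters and not a bound site.

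Reads in peaks ran from 3832347 to 18617444 per library, recovered as whole reads from the deposited group means, and at least 27 of them fell in each member in each library. The libraries within a group are numbered by the worth of a read in the deposited mean, a number with no link to the labels' replicates. Libraries A1 and A2 of the first phase lay close to sampling noise (variance ratio 1.13), and count as 1 library where phases are compared. Second-phase libraries A1 and B1 stood apart from A2 and B2. Over all peaks, A1 of the second phase correlated at 0.979 with rest-phase A1 but at 0.832 with its own partner A2, while A2 and B2 correlated at 0.940. Over the members alone these values were 0.976, 0.720 and 0.938, and second-phase B1 correlated at 0.935 with rest-phase A1 and at 0.580 with its partner B2. Whether libraries were exchanged between phases or groups was not tested, and an exchange would change what each second-phase value and A over B call stands for. Results on the second phase are therefore given with and without A1 and B1, an alternative chosen after these values were seen. Leaving out the libraries most like the rest phase by itself favours calls against that phase. Counts and p-values without A1 and B1 are therefore descriptions. Levels of single libraries are log2 (reads + 1) after quantile scaling over the 12 libraries, which gives every library the same distribution. The limma folds come from reads scaled over the libraries of that comparison alone, and can differ from the difference between the levels printed beside them.

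The thresholds stood at a deposited log2 mean of 7.77 in the first, 8.14 in the rest and 7.87 in the second phase, and 7000 peaks reached each. Members made up 55.7% of these. A further 2646 peaks reached the threshold in exactly 2 phases, 1955 of them in the rest and second phases, and 4011 in exactly 1, 2410 of them in the first. The median member level was 9.15, 8.88 and 8.52 in the authors' deposited tables, against 4.03, 4.87 and 4.74 over all peaks. By the reads of single libraries, which come from the same means as the rule, 80.7% to 98.9% of the members lay in the highest 5%, and 2562 members (65.7%) did so in each of the 12 libraries. Just inside the threshold were peaks near Trim27, Gm15706 and Ctsb, at 7.77 in the first phase for Trim27, and at 7.87 in the second phase for both others. Just outside were Mrpl33 and Stmp1, at 7.87 in the second phase, and Coro2a, at 7.77 in the first.

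The 12 highest members, by the lowest of their 3 ranks, all lay at promoters. They belonged to Hdgfl2 (a chromatin-binding protein), Rab40c and Rab8a (small GTPases), Osbp (an oxysterol-binding protein), Sp1 (the GC box factor), Dnpep (an aminopeptidase), Fam72a, Khsrp (an RNA-binding protein), Cnot3 (a subunit of the CCR4-NOT deadenylase complex), Mtmr4 (a lipid phosphatase), Brpf1 (a chromatin reader) and Ap2a1 (a subunit of the clathrin adaptor AP-2). Their log2 means in the authors' deposited tables ran from 10.86 to 11.19 for the first phase, 10.27 to 10.67 for the rest phase and 9.97 to 10.32 for the second. The member at Hdgfl2 held 1262, 1332, 2897 and 1368 reads in first-phase libraries A1, A2, B1 and B2. Its rest-phase libraries held 2169, 1803, 1305 and 1712, and its second-phase libraries 2037, 1745, 353 and 1079. Its log2 mean in the authors' deposited tables was 11.04, 10.60 and 10.28 in the first, rest and second phase. Its quantile-scaled log2 level lay between 10.64 and 10.95 in all 12 libraries, a range that quantile scaling itself keeps narrow for the top-ranked peaks.

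Most members lay on a start site. By the deposited annotation 3467 (88.9%) were promoter peaks, within 3 kb of a start, against 26.1% of all peaks. The share was 44.3% among peaks above the threshold in exactly 2 phases and 64.3% in exactly 1. Within 1 kb lay 3368 members (86.4%, against 16.7% of all peaks), and 3003 (77.0%, against 9.63%) overlapped the start itself. Distal intergenic members numbered 203 (5.21%, against 30.2%), first introns held 72, later introns 84 and exons 57. The share of promoters rose with the threshold, from 78.4% at the 90th percentile to 97.9% at the 99th.

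**Figure D1:**
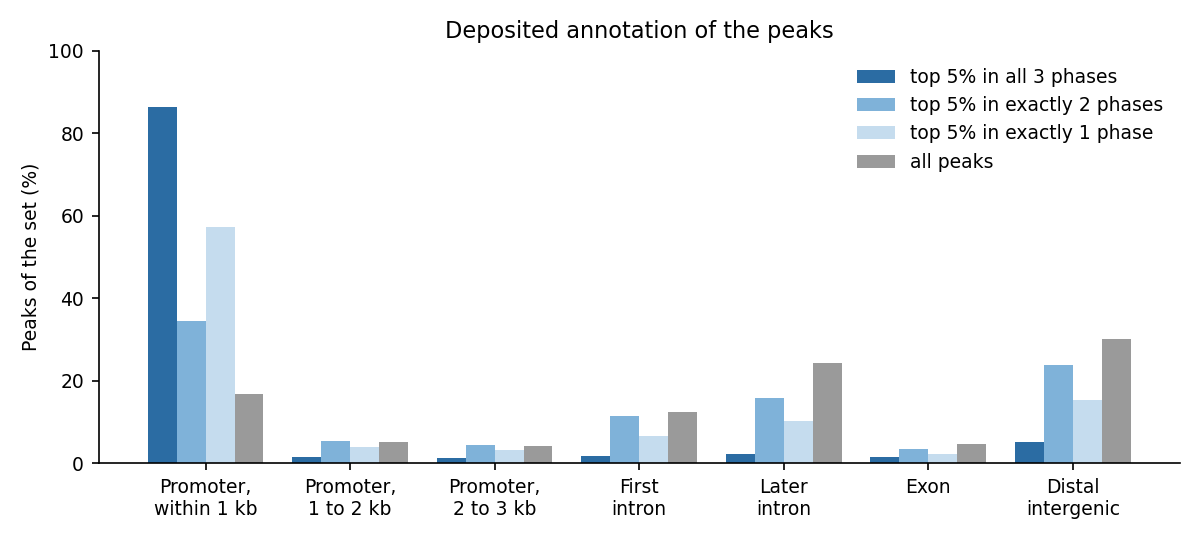
Share of peaks (%, vertical axis) by deposited annotation class (horizontal axis), for peaks in the top 5% in all 3, exactly 2 or exactly 1 phase and for all peaks. The dark bar of promoters within 1 kb reaches 86.4%, against 16.7% of all peaks, and that of distal intergenic peaks 5.21% against 30.2%.

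The members sat just upstream of the start. Of the 3368 members annotated within 1 kb, 3277 lay on a chromosome covered by the RefSeq set used. Among these, the centre of 74.1% lay within 200 bp of the nearest RefSeq start site, against 32.5% of other such peaks. The median centre of those within 1 kb of a RefSeq start lay at -70.5 bp (quartiles -123.5 and -21.5 bp; negative is upstream), and 82.4% lay on the upstream side. RefSeq windows on both strands were overlapped by 19.0% of the 2542 members that had a window, against 8.13% of other peaks with one. Members were spread over the genome, with a median of 65340 bp to the nearest other member, against 2879 bp between all peaks. They made up 4.27% of the peaks of chromosome 7, 3.72% of those of chromosome 11 and 1.42% of those of chromosome X.

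**Figure D2:**
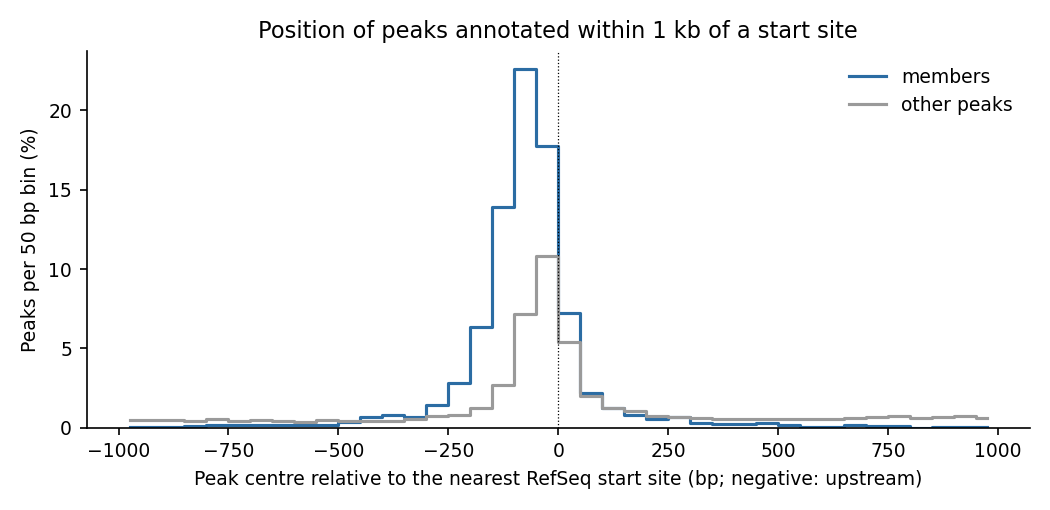
Distance of the peak centre from the nearest RefSeq start site (bp, horizontal axis) for peaks annotated within 1 kb of a start, as the share of peaks per bin of 50 bp (vertical axis). The curve of the members peaks upstream of the start, with a median of -70.5 bp, and other peaks are spread more widely.

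Away from promoters lay 432 members. The highest of those over 3 kb from a start was a distal peak at -18807 bp from the start of Lncppara, a long non-coding RNA, at chr15:85634410-85634809, with levels from 9.98 to 10.40 over the 12 libraries. Next came exonic peaks nearest to the microRNA genes Mir30d (chr15:68363152-68363551) and Mirlet7a-1 (chr13:48546475-48546874), at -21863 and -8203 bp from their starts, and peaks near Fos (AP-1 subunit), Ccne1 (cyclin E1) and Foxj2. The highest 4 in introns or exons were those near Mir30d, Foxj2, Mirlet7a-1 and Mier3.

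Members fell near 3653 genes, 18.8% of the 19395 genes with a peak, and 3447 of these had 1 member. Another 176 genes had 2, 20 had 3 and 10 had 4. The genes with 4 were Zfp36, an RNA-destabilising protein, Fos, Neat1, a nuclear long non-coding RNA, Ptma, Por, Card19, Plekho2, Ube2v1, A530013C23Rik and A630001O12Rik. At Fos the 4 members lay on the start and at -18310, -4837 and 10997 bp from it. The most distant, chr12:85455181-85455580, was the highest, at 9.58, 9.63, 9.91 and 9.94 in first-phase libraries A1, A2, B1 and B2 and 10.24, 10.25, 10.27 and 10.40 in the rest phase. In the second phase it stood at 10.36 and 10.08 in A1 and B1, and at 9.47 and 9.50 in A2 and B2, below every rest-phase library. The member on the Fos start showed another order, where rest-phase libraries A1 and A2 stood at 7.64 and 8.06 but B1 and B2 at 9.63 and 9.69.

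Gene lists drawn up with earlier results of these data known were read beside the 18.8% of all genes that had a member. Among immediate early genes, which signals switch on within minutes, 20 of 25 had a member, with 36 peaks in all and Jund, Fos, Klf6 and Jun the highest. A share by gene does not allow for the number of peaks per gene. By peak, 36 of 452 were members here, beside 43 of 321 for cytosolic ribosomal proteins and 16 of 87 for histone clusters. Over all peaks the share was 2.785%. Machinery used by all cells was also well covered. Cytosolic ribosomal proteins had 40 of 77 genes (Rpl13a and Rps19 highest), cell cycle genes 26 of 51, aminoacyl-tRNA synthetases 16 of 34, proteasome subunits 17 of 38 and RNA polymerase II and Mediator subunits 17 of 40. Splicing factors had 11 of 28, histone clusters 16 of 41, heat shock proteins and chaperonins 30 of 78 (Hspa5 and Hspa8 highest) and translation factors 24 of 64. Mitochondrial ribosomal proteins had 21 of 66, the respiratory chain 32 of 104 and ubiquitin-conjugating enzymes 10 of 37. Inflammatory effectors had 7 of 20. Zinc finger proteins, at 64 of 343, interferon response genes, at 4 of 27 (Irf1 and Irf9 among them), and MHC genes, at 5 of 43, lay near or below the share of all genes. By peak these lists held 72 of 1756, 4 of 139 and 8 of 198, in that order, none of them below the 2.785% of all peaks. Hox genes, silent in most adult macrophages, had 0 of 26, and olfactory receptors 1 of 173. Among acyl-CoA synthetases 3 of 19 genes had a member. They were Acsl1, the long-chain enzyme of the series' title, at its start site (chr8:46470652-46471051), and Acss1 and Acss2, which make acetyl-CoA from acetate. The Acsl1 member stood between 9.80 and 9.99 over the first-phase libraries, between 9.39 and 9.97 over those of the rest phase and between 9.67 and 10.14 over those of the second. These ranges overlap.

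All 15 macrophage markers had a peak within 1 kb of their start, as did all 8 neutrophil, 6 B cell and 4 stem and progenitor markers, so such a peak does not set the cell types apart. Of the macrophage markers 4 (26.7%, beside 18.8% of all genes) had a member, on the start of Cd68, within 1 kb of that of Spi1 (the gene of PU.1) and upstream of Tyrobp and Adgre1. Counted by peak, 4 of the 174 peaks of macrophage markers were members, beside 2.785% of all peaks, so no excess is seen there. None of the neutrophil, B cell, and stem and progenitor markers, of 6 T and NK cell, 6 erythroid and megakaryocyte or 4 stromal markers had a member. Among these, Cd3e, Cd3g, Ncr1, Hba-a1 and Col1a2 had no peak within 1 kb of their start.

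The share of reads that fell in the members differed between libraries. It was 35.4%, 36.4%, 36.7% and 29.7% in first-phase libraries A1, A2, B1 and B2. In the rest phase it was 17.2% and 17.8% for A1 and A2, against 24.2% and 24.3% for B1 and B2. In the second phase it was 17.0% in A1, 22.0% in A2, 12.6% in B1 and 20.9% in B2. All first-phase libraries lay above all later ones, group A lay below group B in the rest phase, and A1 and B1 lay below A2 and B2 in the second. The same order held for promoter members against other members. The median level of promoter members exceeded that of the others by 0.33 to 0.79 in the first phase, by 0.25 in each rest-phase library of group B and by 0.13 to 0.14 in A2 and B2 of the second phase. In rest-phase group A it lay below, by a difference of -0.15 and -0.03, and in A1 and B1 of the second phase by -0.29 and -0.21. These shares were not tested.

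**Figure D3:**
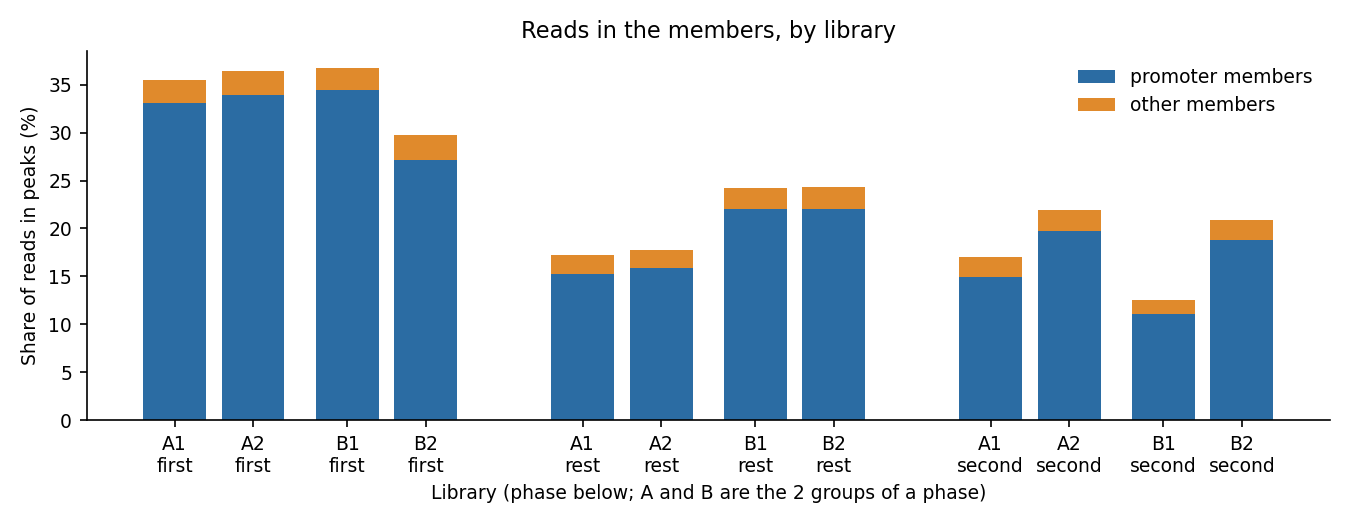
Share of each library's reads in peaks (%, vertical axis) that fell in promoter members (blue) and other members (orange), for the 12 libraries (horizontal axis). First-phase libraries hold 29.7% to 36.7%, and later ones 12.6% to 24.3%.

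Between the rest and the first phase 468 members rose and 784 fell (32.1% of 3899, limma on quantile-scaled reads, adjusted p under 0.05, n = 4 and 3 libraries), beside 38.2% of all peaks (19.6% higher, 18.6% lower). Of 3467 promoter members 327 rose, 758 fell and 2382 were not called, with a median log2 fold of -0.18. Of the 432 other members 141 rose, 26 fell and 265 were not called, with a median of 0.29. Over all peaks 27374 rose and 25921 fell, with a median of 0.02. Since the rule limits how far members can differ between phases, a lower share called among them is not a sign of stability. The scaling set the balance of these counts. Scaled to total reads in peaks, 87 members rose and 2306 fell, with a median of -0.70 beside 0.31 over all peaks and 39.9% of all peaks called (26.6% higher, 13.2% lower). With the authors' scaling, 29 rose and 54 fell, with a median of -0.23 beside 0.76, and 29.1% of all peaks called (24.1% higher, 4.96% lower). The members' median lay below that of all peaks by -0.17, -1.01 and -0.99 under the 3 scalings, in that order. The median of promoter members minus that of other members was -0.47, -0.67 and -0.67. Over all peaks the same difference was -0.31, -0.39 and -0.38, and under quantile scaling the median of all promoter peaks (-0.20) was close to that of promoter members. Without first-phase library B1 the quantile-scaled counts were 345 higher and 418 lower.

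**Figure D4:**
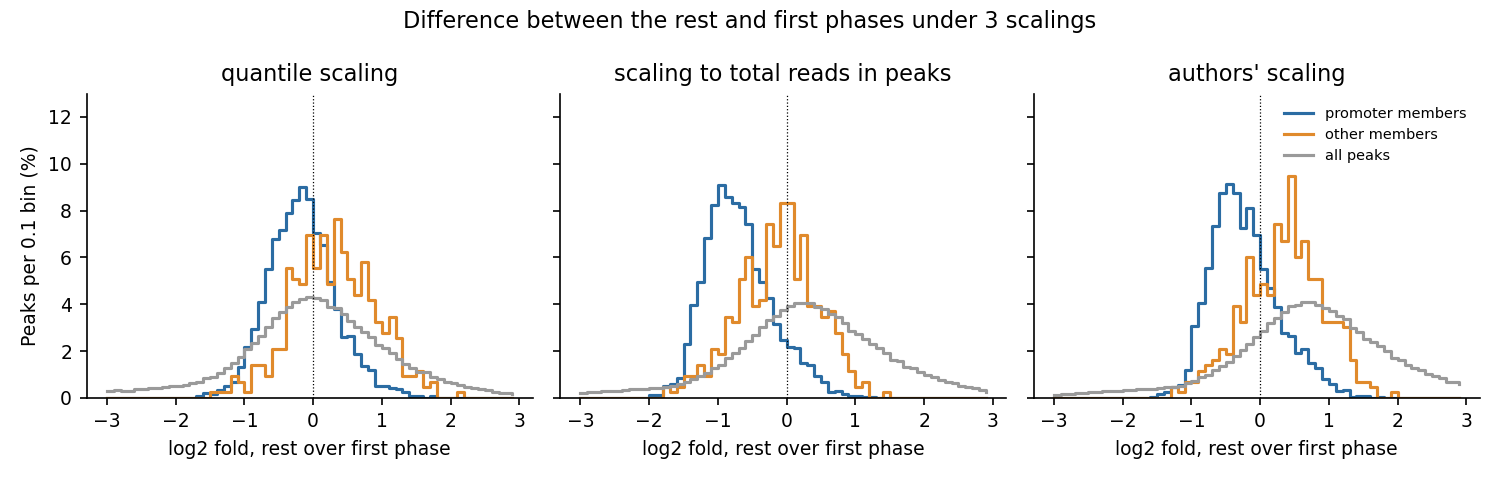
Distribution of the log2 fold of the rest over the first phase (horizontal axis, shown from -3 to 3) for promoter members, other members and all peaks, as the share of each set per bin of 0.1 (vertical axis), under 3 scalings. Promoter members lie left of the other members in all 3 panels, with medians of -0.18 and 0.29 under quantile scaling.

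Markers of several other marrow cells moved with this comparison. Reads at promoters of the neutrophil markers were 244 to 606 in each 1000000 reads in peaks in the first phase and 59.2 to 77.1 in the rest phase. B cell markers held 75.3 to 256 and 48.8 to 64.8, erythroid and megakaryocyte markers 114 to 192 and 65.0 to 73.3, and T and NK cell markers 87.6 to 92.4 and 58.9 to 66.5. Stem and progenitor markers held 29.6 to 41.2 and 25.2 to 34.1, stromal markers 57.9 to 89.8 and 51.1 to 64.5, and macrophage markers 541 to 812 and 798 to 916, with ranges that overlap between the phases. Fewer cells of a type and less open chromatin per cell cannot be told apart here, and the part of cell mixture in the members' differences was not tested.

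The members that rose most were a distal peak near 1110002J07Rik, then peaks near Gse1, Klf13, Mdm1 and Id3. Id3, an inhibitor of helix-loop-helix factors, stood at 8.16, 8.09, 8.37 and 7.54 in first-phase libraries A1, A2, B1 and B2 and at 8.98, 9.43, 9.91 and 10.04 in the rest phase. All rest-phase libraries lay above all first-phase ones at this promoter (log2 fold 1.72, SE 0.28, adjusted p = 0.00026, limma). The peak near 1110002J07Rik (chr10:66864378-66864777) rose from 8.35, 8.18, 8.12 and 8.37 to 10.54, 10.41, 10.00 and 10.00 (log2 fold 2.14, SE 0.18, adjusted p = 2.1e-06, limma) and stayed between 9.82 and 10.50 in the second phase. An exonic peak assigned to Klf13, a KLF transcription factor, and lying at -72766 bp from its start rose by 1.76 (SE 0.18, adjusted p = 8.6e-06, limma). Of these 5 members only that of Id3 overlapped a start site.

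The members that fell most were the promoters of Tmem80, Upf2 (a factor of nonsense-mediated mRNA decay), Sh3gl1 (an endophilin), Sec14l1 and Ccdc12. Upf2 stood at 9.41, 9.49, 9.29 and 9.45 in first-phase libraries A1, A2, B1 and B2. Its rest-phase levels were 6.76 and 7.31 for A1 and A2, against 8.84 and 8.82 for B1 and B2 (log2 fold -1.61, SE 0.45, adjusted p = 0.012, limma). Tmem80 showed the same order, from 9.69 to 9.88 in the first phase to rest-phase levels of 7.16 and 7.43 for A1 and A2 and 9.18 and 9.11 for B1 and B2 (log2 fold -1.69, SE 0.45, adjusted p = 0.0091, limma). At all of these promoters the rest-phase libraries lay below all first-phase ones, and those of group A far below those of group B. In the second phase Upf2 stood at 6.75 in A1 and 6.39 in B1, and at 8.84 in A2 and 8.74 in B2. The calls of these 5 and of the 5 that rose most held under each of the 3 scalings, while that of Sh3gl1 was lost without first-phase B1 (adjusted p = 0.061, limma) or B2 (0.066). Over the 784 members that fell, all 4 rest-phase libraries lay below all first-phase ones at 758, an order that the call itself favours. The share was 96.7%, beside 92.5% of all 25921 peaks that fell. Both rest-phase libraries of group A lay below both of group B at 533 of these members (68.0%, beside 39.8% of the 25921).

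The gene lists are read beside all promoter members, of which 9.43% rose and 21.9% fell under quantile scaling. Of the members away from promoters 32.6% rose and 6.02% fell. Of the 43 cytosolic ribosomal protein peaks among the members 3 rose, 10 fell and 30 were not called, with a median log2 fold of -0.29. The ribosomal shares lay near those of all promoter members. The respiratory chain had 0 higher and 8 lower of 32, heat shock proteins and chaperonins 1 and 5 of 30, and ubiquitin-conjugating enzymes 1 and 5 of 13. Aminoacyl-tRNA synthetases had 2 higher and 0 lower of 16 and a median of 0.004 (0 and 4, with a median of -0.41, when scaled to total reads). Of the 36 immediate early gene peaks 24 were promoter peaks, and 11 of the 36 were higher and 1 lower (median 0.11). Scaled to total reads these counts turned to 2 higher and 10 lower (median -0.30), and with the authors' scaling they were 1 and 1 (median 0.17). Under quantile scaling the 11 lay near Btg2, Atf3, Fos, Egr3, Nr4a3, Jun, Fosb, Klf2 and Junb and included the promoter of Atf3, a stress-induced repressor, which rose from 8.75 to 9.06 in the first phase to 9.80 to 10.21 in the rest phase (log2 fold 1.18, SE 0.17, adjusted p = 8.9e-05, limma). The 1 that fell was the start peak of Jund (log2 fold -0.64, SE 0.21, adjusted p = 0.026, limma). Among macrophage genes the start of Cd68, a lysosomal glycoprotein, rose from 8.99, 8.80, 8.79 and 9.48 to 10.60, 10.44, 10.08 and 10.26 (log2 fold 1.36, SE 0.19, adjusted p = 1.0e-04, limma), with no overlap between the phases. The peak of Spi1 fell by 0.85 on the log2 scale (SE 0.27, adjusted p = 0.022, limma). That of Tyrobp also fell, and that of Adgre1 was not called (adjusted p = 0.063, limma). Of the 4 members of macrophage markers 1 thus rose and 2 fell, and with the authors' scaling 0 were called. Among interferon response genes the start peaks of Irf1 and Irf9 fell (log2 folds -1.01 and -0.70, limma) and that of Stat2 stood at 0.32 with adjusted p = 0.14 in the same limma fit. Of the peaks of Atf3, Jund, Cd68, Spi1, Irf1 and Irf9, that of Jund was also called with the authors' scaling, where Cd68 stood at 1.02 (adjusted p = 0.051, limma) and Irf1 and Irf9 at -0.82 and -0.57. Scaled to total reads, each of these 6 but Atf3 (0.47, adjusted p = 0.14, limma) was called in the same direction.

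Between the second and the rest phase no member was called (limma on quantile-scaled reads, n = 4 and 4 libraries). At an unadjusted p under 0.05 there were 138 of 3899 members, beside 16037 of the 139557 peaks tested. After adjustment 0 of all peaks were called. With the authors' scaling 0 members and 189 of all peaks (0.135%) were called (0.134% higher, 0.00143% lower). Without second-phase libraries A1 and B1, 70 members rose and 107 fell (4.54%, beside 15.3% of all peaks, with 9.26% higher and 6.03% lower, n = 2 and 4 libraries). Without A2 and B2 in their place 0 members were called. Because A1 and B1 were left out for their likeness to the rest phase, the calls and p-values without them describe A2 and B2. They are no test of the phases. The rule also limits how far members can differ, so their lower share called is not a sign of stability. The members that rose in A2 and B2 included known targets of IFN-γ and LPS. Irf1, an interferon-induced transcription factor, stood at 7.94, 8.00, 8.19 and 8.57 in rest-phase libraries A1, A2, B1 and B2. In the second phase it stood at 9.82 in A2 and 10.00 in B2, and at 8.01 in A1 and 8.36 in B1. Libraries A2 and B2 lay above every rest-phase library, while A1 and B1 lay within their range (log2 fold without these 1.47, SE 0.18, adjusted p = 0.00054, limma). Cxcl2, a chemokine that attracts neutrophils, stood at 8.80, 8.11, 7.84 and 8.29 in the rest phase, and at 9.10, 9.81, 8.43 and 10.04 in A1, A2, B1 and B2 of the second (log2 fold without A1 and B1 1.42, SE 0.20, adjusted p = 0.0014, limma). The exonic peak assigned to A530013C23Rik, the start of Ier3 and an intronic peak near Notch1, a cell surface receptor, followed, with log2 folds of 1.55, 1.23 and 1.17. By the same limma fit the start peaks of Nfkbia and Tnfaip3, inhibitors of NF-κB signalling, rose by 0.78 (adjusted p = 0.0055) and 0.67 (adjusted p = 0.020). By list, 3 of 9 member peaks of inflammatory effectors, 2 of 4 of interferon response genes and 1 of 8 of MHC genes rose, and 0 fell. Of the 36 immediate early gene peaks 1 rose and 4 fell.

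The members that fell most in A2 and B2 were the promoters of Arl4c, a small GTPase, and Steap3, an iron reductase, and peaks near Gnai2, a G protein subunit, Flna, an actin crosslinker, and A630001O12Rik. Arl4c stood at 9.49, 9.54, 9.17 and 9.22 in rest-phase libraries A1, A2, B1 and B2. In the second phase it stood at 7.45 in A2 and 7.18 in B2, and at 9.30 and 9.21 in A1 and B1 (log2 fold without these -1.70, SE 0.17, adjusted p = 0.00023, limma). Libraries A1 and B1 again lay within the range of the rest phase.

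**Figure D5:**
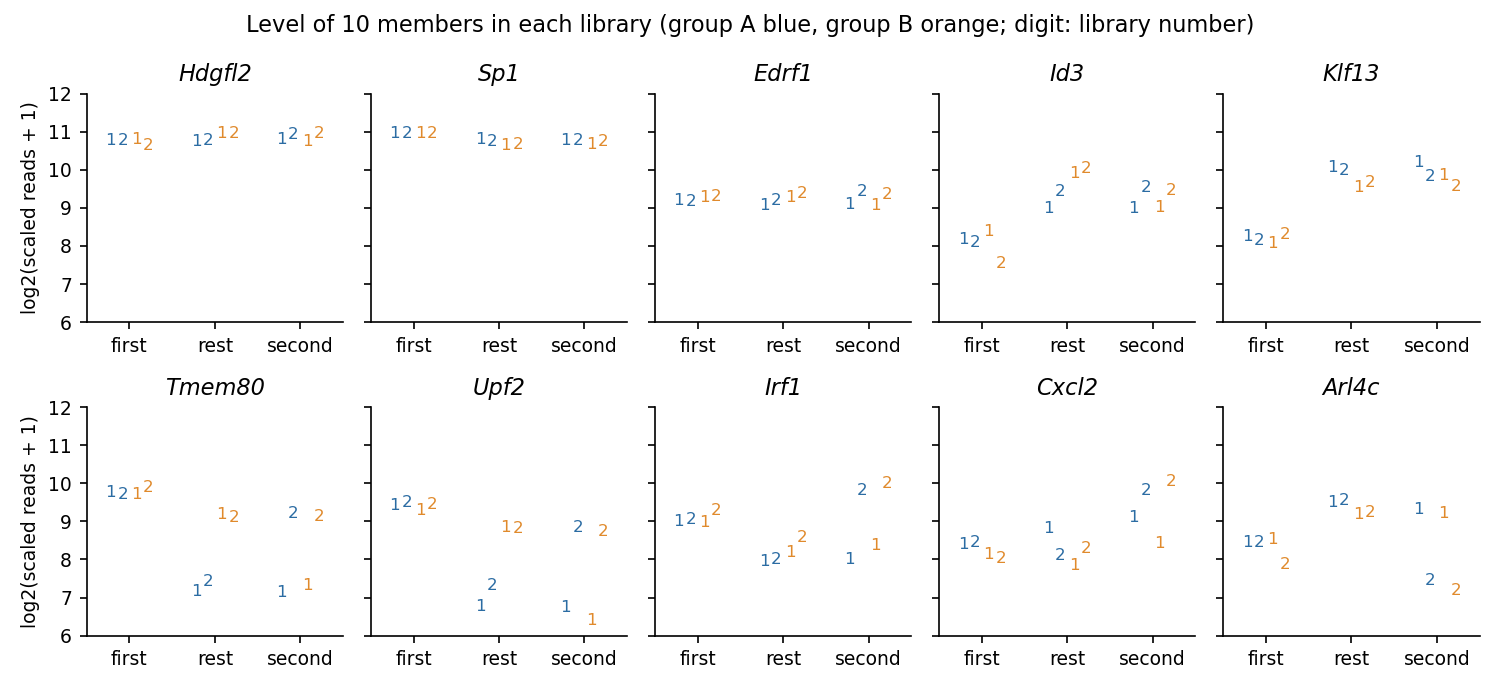
Log2 level of 10 members (vertical axes, log2 of quantile-scaled reads + 1) in the first, rest and second phase (horizontal axes), with group A in blue, group B in orange and the library number as the symbol. Hdgfl2 and Sp1 were chosen for their rank, which quantile scaling holds near one level, and Edrf1 for its small range, while Tmem80 and Upf2 are low in rest-phase group A and in libraries A1 and B1 of the second phase, and Irf1, Cxcl2 and Arl4c differ from the rest phase in A2 and B2.

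Within the first phase the authors' deposited table calls no member and none of all peaks (0%) between A and B, and 1 member and 812 of all peaks had an unadjusted p under 0.05. limma called 0 members under each of the 3 scalings, with 248 of 3899 members at an unadjusted p under 0.05 under quantile scaling, beside 5193 of 139557 peaks. In these fits the close pair A1 and A2 counted as 2 libraries, so the spread within A was close to sampling noise. In the rest phase 206 members were higher in A and 0 in B in the authors' deposited table, 5.28% beside 39.8% of all peaks (39.7% higher in A, 0.0929% in B). The scaling turned this balance. limma on quantile-scaled reads called 273 members higher in A and 975 higher in B (32.0%, beside 11.8% of all peaks, 6.37% higher in A and 5.47% in B). Scaled to total reads in peaks it called 73 and 2344 (beside 21.4% of all peaks, 13.1% and 8.29%), and with the authors' scaling 316 and 0 (beside 55.3%, 54.9% and 0.461%). The median log2 fold of A over B over the members was -0.14, -0.44 and 0.97 under these 3 scalings, and that over all peaks -0.02, -0.06 and 1.31. The members thus lay below all peaks by -0.12, -0.39 and -0.34, and by -0.34 in the authors' deposited table (0.70 against 1.04).

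In the rest phase the member with the largest deposited fold was an exonic peak of Fnbp1, a membrane-bending protein, with log2 means of 9.72 in A and 7.13 in B and a shrunken fold of 2.11 (adjusted p = 0.00098) in the authors' deposited table. Its libraries stood at 9.53 and 9.17 for A1 and A2, above 7.87 and 7.52 for B1 and B2. It was followed in the authors' deposited table by peaks near 4933431G14Rik, H3c8 (histone H3), Gm5122 and 2210417A02Rik, with folds of 2.04 to 1.80, and by quantile-scaled levels A also lay above B at each. On the other side, quantile-scaled levels were lowest in A against B at the promoters of Polr2e (an RNA polymerase II subunit), Rps12 (a ribosomal protein), Snrnp70 (a splicing factor), Phf12 and Sh3gl1. Polr2e stood at 6.60 and 7.03 in A and at 9.11 and 9.05 in B (log2 fold -1.92, SE 0.16, adjusted p = 0.00094, limma, n = 2 and 2). The authors' deposited table gives it log2 means of 7.89 and 8.46, with a shrunken fold of -0.41 and an adjusted p of 0.54.

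In the second phase 914 members were higher in A and 0 in B in the authors' deposited table, 23.4% beside 26.7% of all peaks (26.7% higher in A, 0.00429% in B). limma called 0 members under each of the 3 scalings, with 1 member at an unadjusted p under 0.05 under quantile scaling and 0 under the others. Of all 139557 peaks tested, 1056 had such a p under quantile scaling, 1356 when scaled to total reads and 5331 with the authors' scaling. The largest deposited folds were those near Grk2, a receptor kinase, Elovl5, a fatty acid elongase, A630001O12Rik, Myo1f and Nav2, from 1.76 to 1.67 in the authors' deposited table. At Grk2 libraries A1 and A2 stood at 9.73 and 8.38, beside 9.62 and 7.64 for B1 and B2. The libraries of the groups interleave there, and A1 and B1 lie together above A2 and B2.

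The smallest range of phase means was that of Edrf1, with levels from 9.05 to 9.43 over the 12 libraries, then of Mcm10, a replication factor, and Rab40c. Mcm10 varied within phases, from 8.50 and 8.56 in rest-phase A1 and A2 to 7.82 and 7.89 in B1 and B2. The largest ranges were those near 1110002J07Rik, Gtf2a1, a general transcription factor, and Pou2f1, an octamer-binding factor, whose promoter stood at 9.72 to 10.08 in the first phase and at 7.42 and 8.01 in rest-phase A1 and A2 and 9.28 and 9.10 in B1 and B2 (log2 fold -1.51, SE 0.39, adjusted p = 0.0067, limma).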

How the data were processed

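ATAC-seq peaks of 12 libraries in 6 groups of 2 were used. The authors deposited 1 table per phase, with the same 139999 peaks (99.8% of them 400 bp wide) and, as log2 values, the mean normalized reads of each group and a shrunken fold. The authors also deposited a p-value and an adjusted p-value per peak, and the nearest gene. The submitters' processing notes name the build mm10 and, with no role given, HOMER 5.1, DESeq2, DiffBind 3.14.0, MACS2, Bowtie2 2.5.4, bedtools 2.28.0, Picard 3.2.0 and deepTools 3.2.1.

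The members and the gene lists were chosen with earlier results of these data known. Group means were split into whole reads of their 2 libraries (all values above the floor solved by 1 pair; 442 peaks with a listed 0, none a member, were left out). Simulated group means were recovered at 100%. Reads were quantile-scaled and tested on log2 (reads + 1) with limma 3.58.1 (R 4.3.3, trend, Benjamini-Hochberg adjustment) over 139557 peaks. On simulated data with 200 planted peaks, the share recovered by limma was 0% at 2-fold and 66.5% at 4-fold between the first and rest phases, and 0.5% and 73.5% between the rest and second phases. The simulation gave every peak the same dispersion and changed no other peak, whereas 38.2% of real peaks were called between the first and rest phases. Its shares are therefore not the power of the fits reported here. Deposited folds were turned to A over B. Named members followed a rule: the 12 highest, the highest away from promoters, those with the largest called folds, those nearest the threshold, those with the smallest and largest range, the genes with most members and up to 4 per list. Named beyond it, after their values were seen, were the start peaks of Atf3 and Nfkbia and the other immediate early genes called.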

Additional observations from a re-analysis of the deposited data

How the results depend on the processing

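Members numbered 7926 at the 90th percentile, 1937 at a percentile between the 95th and the 99th and 766 at the 99th, with promoter shares of 78.4%, 94.9% and 97.9%, and 86.4% lay within 1 kb of a start. Leaving out 1 library at a time gave 3711 to 3950 members and promoter shares of 87.8% to 90.02%, and the set by the lower group level held 3195, by linear means 3849 and over peaks above the lowest listed level 3895. For the rest against the first phase, 235 members passed with a fold of at least 2 (117 higher, 118 lower), 2393 when scaled to total reads and 83 with the authors' scaling. Leaving out 1 library gave 763 to 1355, the fewest without first-phase B1, and promoter minus other members ran from -0.59 to -0.34, with -0.67 under either other scaling. For the second against the rest phase, 0 members passed under each other scaling and without any 1 library, and 177 without A1 and B1. For groups A and B in the rest phase, 1248 members passed with quantile scaling and 2417 with total scaling, both mostly in the other direction, and 316 with the authors' scaling. In the second phase all 3 limma fits gave 0 in place of 914. Of single members, Ier3 turned to -0.0132 with the authors' scaling and -0.47 without A2 and B2. Without 1 library at a time Ier3 ran from -0.0310 to 0.677 and A630001O12Rik from -0.67 to 0.00190, both reversed without second-phase B2, and without A2 and B2 A530013C23Rik stood at -0.18, Steap3 at 0.21, Gnai2 at 0.0731 and A630001O12Rik at 0.50. The causes were not tested. The near-identical pair lies in the first phase, so counting it as 2 has no meaning for the second against the rest phase and was not run. Leaving out a library could not be applied to the deposited calls. No paired analysis was possible because the columns carry no replicate numbers.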
